A study of Mus musculus with 6 samples.

Results

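The genes described here are 40 late spermatid and sperm structure genes, which encode the proteins that pack sperm DNA, build the acrosome and the flagellum, and lie in the sperm membrane. They were chosen by name, for their roles in sperm. The platform annotation gives 39 of the 40 a feature with a single gene symbol, 42 features in all out of 23521 tested features of 22180 genes. Prm2 lies only on a feature that also carries Wdr19, so its value is given apart. Expression was measured in R1, a male 129X1 x 129S1 mouse embryonic stem cell line, on 6 Affymetrix Mouse Gene 2.0 ST arrays. The 3 untreated cultures and the 3 cultures with AA2G (ascorbic acid 2-glucose in the labels, 0.74 mM or 250 µg/ml) were all kept for 3 days on gelatin in fetal bovine serum with LIF. All samples come from this 1 line, so the p-values measure the spread between its cultures. The comparison asks how far along the germ cell programme the cells' response to the vitamin C derivative extends, down to genes used after meiosis.

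Spermatids are haploid cells that remodel into sperm without dividing. Their histones give way first to transition proteins and then to protamines, small basic proteins that compact the DNA. In the same period a secretory vesicle spreads over the nucleus as the acrosome, and a tail is assembled from an axoneme, outer dense fibres and a fibrous sheath. In the testis these genes are switched on late, during or after meiosis, by factors such as CREM, whereas germ cell identity and meiotic genes come earlier. Embryonic stem cells express some of the earlier genes and do not form spermatids.

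With AA2G, 0 of the 42 features passed a Benjamini-Hochberg adjusted p of 0.05 in limma, higher or lower. Over all tested features 0.761% passed, 0.608% higher and 0.153% lower, so fewer than 1 call would be met among 42 features at that rate. The lowest adjusted p among the members was 0.167. The fitted log2 fold changes ran from -0.45 to 0.27 with a median of -0.02, against a median of -0.01 over all features. Of the 42 values 25 were negative (59.5%, against 52.3% of all features). The 95% confidence interval of each of the 42 changes lay inside a 2-fold change in either direction, and 41 of them lay inside a 1.5-fold change. Over all features 99.2% of the intervals lay inside a 2-fold change, and 22032 of 23521 inside a 1.5-fold change. Narrow intervals are therefore no trait of the members. The highest upper bound among the members was 0.53, a 1.44-fold rise, for the sperm protein gene Crisp2. RMA values of dim features understate fold changes, so these bounds hold for the array values. In bulk RNA, a change in the number of cells that use a gene and a change in RNA per cell cannot be told apart.

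**Figure D1:**
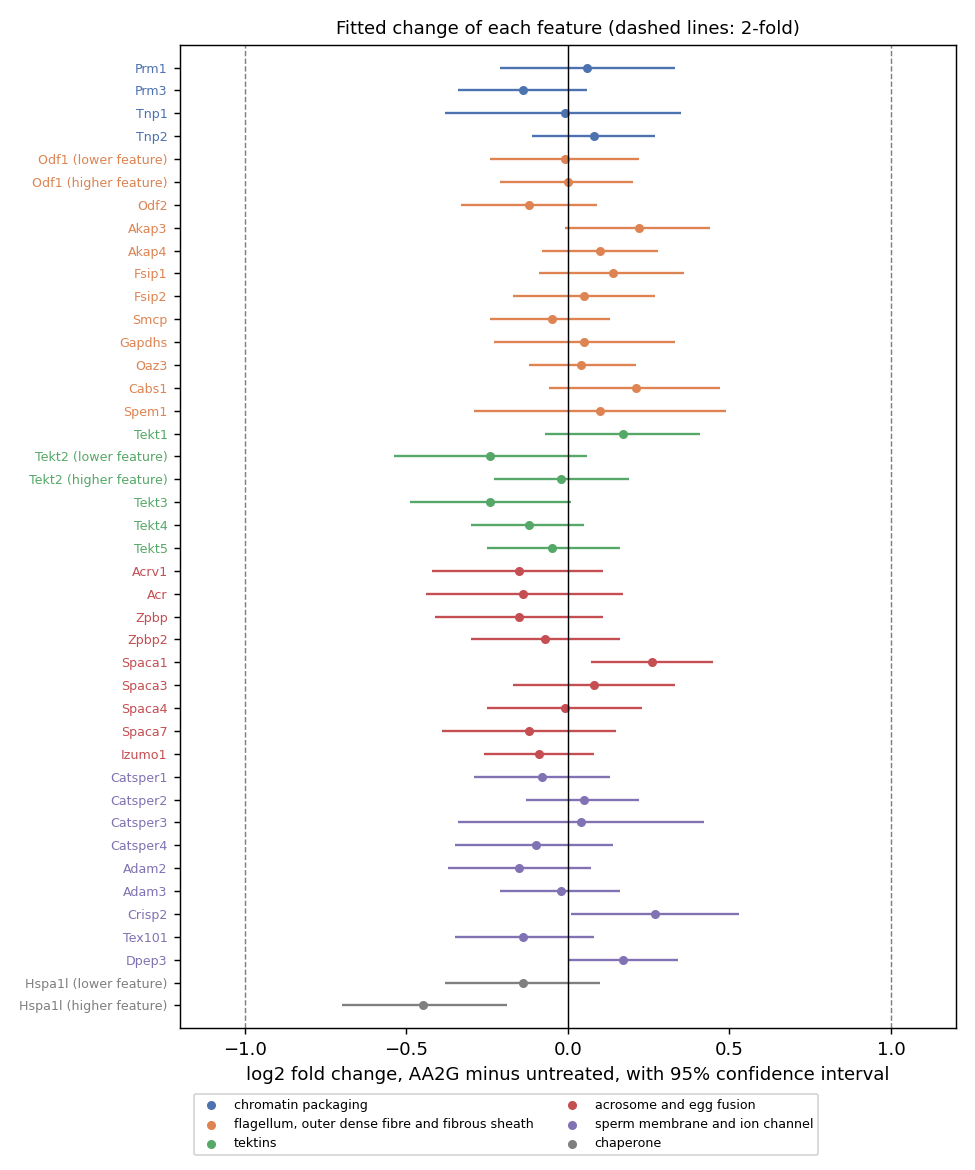
Fitted log2 fold change (AA2G minus untreated, x axis) of each of the 42 features with its 95% confidence interval, coloured by role; dashed lines mark a 2-fold change. Every interval lies between the dashed lines, as do 99.2% of those of all tested features. The widest excursions are Hspa1l, down to -0.70, and Crisp2, up to 0.53.

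At an unadjusted p under 0.05 there were 4 member features, 3 higher (Spaca1, Crisp2 and Dpep3) and 1 lower (Hspa1l), which is 9.52% of the 42. The share over all features was 9.71%, with 4.66% higher and 5.06% lower. The groups of arrays did not overlap for 4 member features (9.52%), namely Spaca1, Akap3 and Dpep3 on the higher side and Hspa1l on the lower. Over all features this held for 15.7%, 7.21% higher and 8.48% lower. Both shares of the members lie at or below those of the array as a whole.

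The protamine and transition protein genes showed no difference beyond the spread of the arrays. Prm1, a protamine gene, read 4.89, 4.59 and 4.88 on the untreated arrays and 4.97, 4.66 and 4.92 with AA2G, all on the log2 scale. In both groups the replicate labelled 2 was the low one and the groups overlapped. The fitted change was 0.06 ± 0.12 (SE; limma adjusted p = 0.925). Tnp1, the gene of transition protein 1, spread most within the untreated group, at 4.06, 4.42 and 4.74, and its AA2G values of 4.28, 4.42 and 4.48 lay within that range. Tnp2, the gene of transition protein 2, read 4.60, 4.54 and 4.45 untreated and 4.69, 4.64 and 4.50 with AA2G, a change of 0.08 ± 0.08. Prm3, which lies beside Prm1, Prm2 and Tnp2 on chromosome 16, read 5.52, 5.70 and 5.51 untreated and 5.55, 5.34 and 5.42 with AA2G, a change of -0.14 ± 0.09. The feature shared by Prm2 and Wdr19 read 7.14, 7.27 and 7.29 untreated and 7.33, 7.26 and 7.31 with AA2G. In the fit of all features its change was 0.06 ± 0.08 (adjusted p = 0.899), and which of its genes it reads cannot be told apart.

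The promoters of the packaging genes Prm1, Prm2, Tnp1 and Tnp2 are shown because they carry few CpG dinucleotides, the sites that DNA methylation acts on. Whether CpG content bears on the response to AA2G was not tested. Each is the 150 bases before the RefSeq gene start (GRCm38.p6, minus strand, written 5′ to 3′), with every CG in capitals. They lie at chr16:10796824-10796973 for Prm1, chr16:10792106-10792255 for Prm2, chr1:73015900-73016049 for Tnp1 and chr16:10788656-10788805 for Tnp2.
Prm1: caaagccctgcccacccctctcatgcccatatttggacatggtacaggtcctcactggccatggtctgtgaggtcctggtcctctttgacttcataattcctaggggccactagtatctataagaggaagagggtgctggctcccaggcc
Prm2: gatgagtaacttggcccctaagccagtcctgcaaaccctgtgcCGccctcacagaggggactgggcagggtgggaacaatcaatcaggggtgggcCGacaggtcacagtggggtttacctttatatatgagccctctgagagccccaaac
Tnp1: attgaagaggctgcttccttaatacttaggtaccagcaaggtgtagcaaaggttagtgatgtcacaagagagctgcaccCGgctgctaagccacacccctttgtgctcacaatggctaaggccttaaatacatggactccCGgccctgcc
Tnp2: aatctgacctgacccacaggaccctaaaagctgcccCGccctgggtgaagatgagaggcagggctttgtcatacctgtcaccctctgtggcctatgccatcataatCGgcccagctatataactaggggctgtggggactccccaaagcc
The stretch of Prm1 holds 0 CpGs, and those of Prm2, Tnp1 and Tnp2 hold 2 each.

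Among the genes of the flagellum, 11 genes on 12 features, the changes ran from -0.12 to 0.22 with a median of 0.05. Akap3, an anchoring protein of the fibrous sheath, had the largest positive value. It read 3.59, 3.53 and 3.47 untreated and 3.64, 3.94 and 3.64 with AA2G, so the groups did not overlap, though the AA2G replicate labelled 2 stood above the others. The change was 0.22 ± 0.10 (SE; limma adjusted p = 0.539). Its partner Akap4, which makes up most of the sheath and lies on the X chromosome, was at 0.10 ± 0.08, from 4.52 ± 0.05 to 4.62 ± 0.10 (SD, n = 3 each). Fsip2, a further fibrous sheath gene, had the lowest readings of all members, at 2.79, 2.57 and 2.59 untreated and 2.84, 2.61 and 2.66 with AA2G. Fsip1 was at 0.14 ± 0.10 (SE).

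Odf2 is the one member of this group with a known wider use, since its product also belongs to the centrosome of dividing cells. It read 8.80, 8.57 and 8.68 untreated and 8.70, 8.47 and 8.53 with AA2G, a change of -0.12 ± 0.09 (limma adjusted p = 0.755). In each replicate number the AA2G value was the lower, but the groups overlapped. The outer dense fibre gene Odf1 has 2 features that disagree in level. One read 4.37, 4.46 and 4.47 untreated and 4.48, 4.22 and 4.57 with AA2G. The other read 12.36, 12.23 and 12.43 untreated and 12.38, 12.22 and 12.40 with AA2G, near the top of the array's range. Neither differed between the groups (-0.01 ± 0.10 and 0.00 ± 0.09), and what the brighter feature reads was not tested.

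The other flagellum genes were Smcp, a cysteine-rich protein of the mitochondrial capsule (-0.05), Gapdhs, the sperm form of the glycolytic enzyme GAPDH (0.05), and Oaz3, an antizyme of polyamine synthesis (0.04). Spem1, which acts in the shedding of cytoplasm, was at 0.10 ± 0.17 (SE), the largest standard error of the members. Cabs1, a calcium-binding protein of the tail, read 3.64, 3.87 and 3.94 untreated and 3.94, 4.22 and 3.91 with AA2G, a change of 0.21 ± 0.12 with overlapping groups.

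Tektins are filament proteins of the axonemal microtubules in sperm and in other motile cilia. Of their 6 features 5 had negative values, with a median of -0.08. Tekt1 was the exception. It read 6.01, 6.24 and 6.20 untreated and 6.50, 6.25 and 6.20 with AA2G, where the replicate labelled 1 was the highest of the 6 (0.17 ± 0.10). Tekt3 had the largest negative value, with 3.56, 3.75 and 3.87 untreated and 3.58, 3.55 and 3.33 with AA2G (-0.24 ± 0.11; limma adjusted p = 0.52). The groups overlapped at a single untreated array. The features of Tekt2 gave -0.24 ± 0.13 and -0.02 ± 0.09, and Tekt4 and Tekt5 were at -0.12 and -0.05.

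Acrosome and fertilisation genes had a median of -0.09 over 9 features, 7 of them negative. The exception nearest to a call was Spaca1, an acrosomal membrane protein needed to shape the acrosome. It read 3.28, 3.42 and 3.23 untreated and 3.60, 3.64 and 3.47 with AA2G, so all AA2G arrays were above all untreated ones. The change was 0.26 ± 0.08, a 1.2-fold difference (SE; limma adjusted p = 0.315, and from 0.13 to 0.645 over the alternatives). Acrv1, an acrosomal antigen, read 3.96, 3.67 and 3.64 untreated and 3.43, 3.64 and 3.74 with AA2G, with overlap (-0.15 ± 0.11). Spaca4, a membrane protein used in binding the egg coat, had the highest level of this group, at 5.95, 6.08 and 5.84 untreated and 6.0, 5.77 and 6.08 with AA2G (-0.01 ± 0.10).

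The protease gene Acr, which encodes acrosin, was at -0.14 ± 0.13 (SE), and the zona pellucida-binding protein genes Zpbp and Zpbp2 were at -0.15 ± 0.11 and -0.07 ± 0.10. Spaca3 and Spaca7 were at 0.08 and -0.12. Izumo1, the sperm surface protein that binds the egg receptor Juno, was at -0.09 ± 0.07 on its own feature. A brighter feature that it shares with Rasip1 read 6.23, 6.37 and 6.45 untreated and 6.07, 6.06 and 6.03 with AA2G. That is a change of -0.30 ± 0.08 without overlap, which did not pass in the fit of all features (limma adjusted p = 0.377), and which gene it reads cannot be told apart.

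Genes of the sperm membrane, 9 features, had a median of -0.02. The 4 CatSper genes, pore subunits of the sperm calcium channel, lay between -0.10 (Catsper4) and 0.05 (Catsper2), with Catsper1 at -0.08 and Catsper3 at 0.04. Catsper4 had the highest untreated readings of this group, 5.11, 5.33 and 5.23, and read 5.17, 4.93 and 5.26 with AA2G, with overlap. Crisp2, a cysteine-rich secretory protein of the acrosome and tail, read 3.08, 3.03 and 3.28 untreated and 3.24, 3.60 and 3.35 with AA2G. The highest untreated array stood above the lowest AA2G array. The change was 0.27 ± 0.11 (SE; limma adjusted p = 0.495).

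Dpep3 encodes a membrane-bound dipeptidase that forms a complex with TEX101 on testicular germ cells. It read 5.05, 4.88 and 4.97 untreated and 5.13, 5.10 and 5.18 with AA2G, a small difference without overlap (0.17 ± 0.07; limma adjusted p = 0.512, and from 0.184 to 0.792 over the alternatives). Its partner Tex101 had the opposite sign, from 4.62 ± 0.14 to 4.48 ± 0.10 (SD, n = 3 each; adjusted p = 0.729). Adam2, a fertilin subunit, had the largest negative value among the membrane genes. It read 3.21, 3.46 and 3.43 untreated and 3.20, 3.33 and 3.13 with AA2G, with overlap (-0.15 ± 0.09 SE), and Adam3 was at -0.02 ± 0.08.

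Hspa1l, a heat shock protein 70 gene used in spermatids, stood farthest from no change. On its brighter feature it read 4.97, 4.75 and 5.08 untreated and 4.42, 4.40 and 4.65 with AA2G, so all AA2G arrays were lower. The fitted value was -0.45 ± 0.11, or 0.734-fold (SE; limma adjusted p = 0.167, and from 0.0646 to 0.467 over the alternatives). Its other feature read 4.56, 4.48 and 4.39 untreated and 4.52, 4.33 and 4.15 with AA2G, with overlap (-0.14 ± 0.10). Hspa1a and Hspa1b, stress-induced genes that lie beside Hspa1l on chromosome 17 and are close to it in sequence, were looked at after this value was seen. Hspa1b was at -0.50 ± 0.13 (adjusted p = 0.195) and Hspa1a at -0.33 ± 0.10 (adjusted p = 0.286), both without overlap of the groups and neither past the threshold. Whether the probes of these genes read each other's transcripts was not tested.

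**Figure D2:**
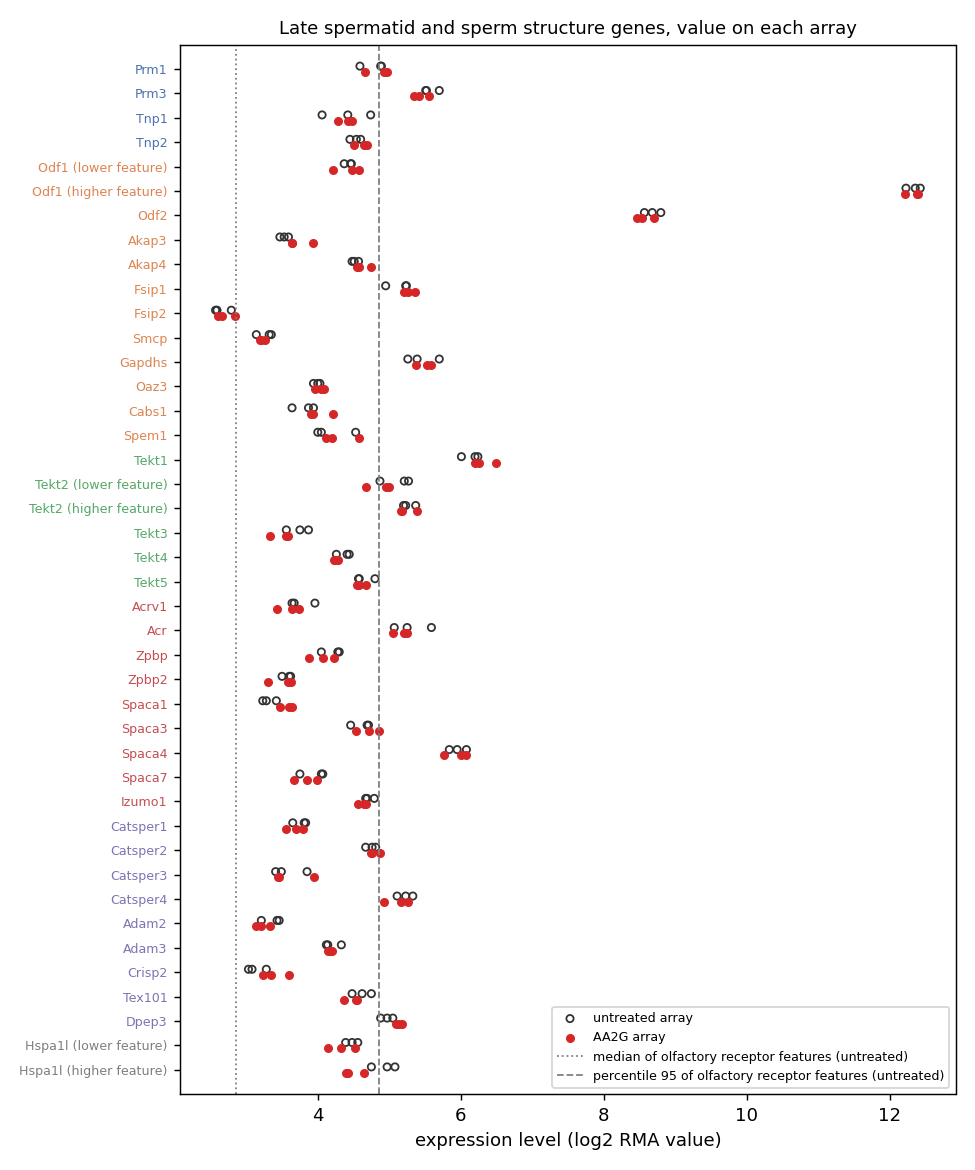
Log2 RMA value (x axis) of each of the 42 features on each array, open circles untreated and filled circles AA2G; dotted and dashed lines mark the median (2.86) and percentile 95 (4.85) of olfactory receptor features in untreated cells. Open and filled circles overlap for 38 of the 42 features, and 13 features lie right of the dashed line in untreated cells.

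Most of the members read in the low range of the array. The table has no detection calls, and probes differ in brightness, so levels of different genes are not ranked as expression. As a guide to the low range, the 1108 features of olfactory receptor genes, which are little used outside the nose, had a median of 2.86 and a percentile 95 of 4.85 in untreated cells. With AA2G these were 2.91 and 4.91. The median of the member features was 4.50 untreated and 4.45 with AA2G, and that of all tested features was 5.51 in both. Of the 42 member features 13 (31%) lay above the olfactory percentile 95 in untreated cells, against 62.8% of all features. The number with AA2G was 11 (26.2%, against 61.6% of all features). The 11 were those of Prm3, Odf2, Fsip1, Gapdhs, Tekt1, Acr, Spaca4, Catsper4 and Dpep3, with the brighter features of Odf1 and Tekt2. Against each group's own line no member crossed upwards, and Hspa1l and the dimmer feature of Tekt2 crossed it downwards. The AA2G mean of that Tekt2 feature, 4.88, was still above the untreated line of 4.85. Of 8756 tested features at or under the line in untreated cells 53 were called higher (0.605%), at a median of 1.03 on the log2 scale. Only 1 of the 8756 was called lower (0.0114%). Of the member features 29 lay in this low range. Above the line 90 of 14765 were called higher (0.61%) and 35 lower (0.237%). Whether the low level of the members hides changes was not tested.

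Some genes that act earlier in the germ line rose on the same arrays. Of 25 early germ cell and piRNA pathway genes 6 rose and 0 fell, and of 33 measured meiotic prophase genes 5 rose and 0 fell, with medians of 0.08 and 0.17, where 0.608% of all features were called higher. The other 19 and 28 genes did not pass. Those with the smallest p were Sohlh2, Mov10l1, Dazl and Mael in the first list and Rec114, Hormad1, Smc1b and Hormad2 in the second. Hormad1, a meiotic chromosome axis gene, started in the low range, with 4.35, 4.33 and 3.73 untreated, and read 5.73, 6.31 and 6.11 with AA2G (1.92 ± 0.20 SE; limma adjusted p = 0.00567). The other 3 risers, named after their values were seen, were Stra8, the gate to meiosis that retinoic acid induces (0.77 ± 0.11; adjusted p = 0.0218), Piwil2, a PIWI protein of the piRNA pathway (0.73; 0.0305), and Terb2, a protein that tethers telomeres to the nuclear envelope in meiosis (0.87; 0.0123). The counts moved with single arrays, to 3 of 25 without untreated replicate 3 and without AA2G replicate 2, and to 3 of 33 without AA2G replicate 2. The calls of Stra8 and Piwil2 were kept without AA2G replicate 1 and lost when any other array was left out, and that of Piwil2 was also lost with the replicate number as a block (adjusted p = 0.0593). That of Terb2 was lost without untreated replicate 1, AA2G replicate 2 or AA2G replicate 3. Tdrd12, of the piRNA pathway, also named after its values were seen, was at -0.46 ± 0.09 without overlap (adjusted p = 0.0855). It passed as lower with brighter features only, a trended robust prior and array weights. These lists were drawn up with earlier results of these data known, so their calls are no independent support.

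A further list of late spermatid and sperm genes, none of them a member, had no call either. Of 51 measured genes 0 passed in limma. At the rate over all features, 0.761%, fewer than 1 call would be met among them. At an unadjusted p under 0.05 there were 3 positive and 1 negative value (7.84%, against 9.71% of all features). The median was -0.03. All 51 confidence intervals lay inside a 2-fold change, as did 99.2% of those of all features. The 4 with the smallest p were the chaperone gene Dnajb3 (-0.27 ± 0.08 SE; limma adjusted p = 0.239), Septin12, of the sperm annulus (0.20 ± 0.07), the acrosomal gene Spesp1 (0.23 ± 0.09) and Actl7b, an actin-related gene of spermatids (0.33 ± 0.13). Dnajb3 passed as lower with array weights alone (-0.33; adjusted p = 0.0498).

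Regulators that drive the spermatid programme in the testis did not pass either. Of 14 measured genes 0 were called in limma. At the rate over all features, 0.761%, fewer than 1 call would be met among them. At an unadjusted p under 0.05 there were 1 positive and 1 negative value (14.3%, against 9.71% of all features). The median was -0.05. Taf7l, a testis form of a general transcription factor subunit on the X chromosome, read 3.91, 4.18 and 4.03 untreated and 4.52, 4.89 and 4.45 with AA2G. The groups did not overlap and the change was 0.58 ± 0.13 (SE; limma adjusted p = 0.125, and from 0.0547 to 0.342 over the alternatives). Kdm3a, a histone demethylase needed for protamine expression in spermatids, was at -0.24 ± 0.07 (adjusted p = 0.304). The poly(A) polymerase gene Papolb was at -0.21 ± 0.12 and Mybl1, a meiotic transcription factor, at -0.29 ± 0.17.

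**Figure D3:**
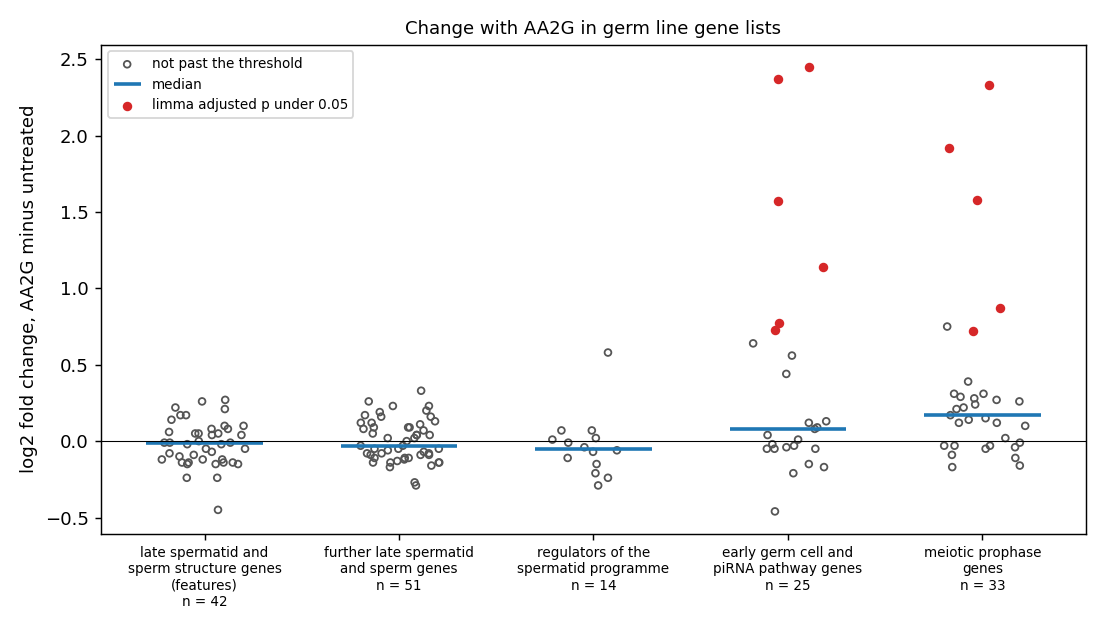
Log2 fold change (AA2G minus untreated, y axis) of the 42 member features and of the genes of 4 other lists, 1 point each, with the median as a bar and filled points past a limma adjusted p of 0.05. Filled points appear in the early germ cell list (6) and the meiotic list (5), and none in the late spermatid lists or among the regulators.

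The promoter windows of the members, 250 bases before to 50 after the RefSeq start, held few CpGs. A window was found for 33 of the 40 members. The ratio of observed to expected CpG had a median of 0.25 over these 33 genes, against 0.57 over 16986 tested genes, 0.59 over 21 early germ cell genes and 0.63 over 26 meiotic genes. It was above 0.6, a common mark of CpG islands, in 6 members (18.2%) and in 47.4% of all genes. By role the medians were 0.06 for the flagellum, 0.16 for the packaging genes, 0.40 for the acrosome and 0.57 for the tektins and for the membrane genes. The 6 members above 0.6 were Catsper2 (1.01), Odf2 (0.95), Zpbp2 (0.85), Tex101 (0.70), Crisp2 (0.68) and Fsip2 (0.65). The further late spermatid genes had a median of 0.26. The regulators of the spermatid programme had a median of 0.81 over 12 genes. The 113 genes called higher with AA2G that have a window had a median of 0.42, also below that of all genes. For the 24 genes called lower that have a window it was 0.68.

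**Figure D4:**
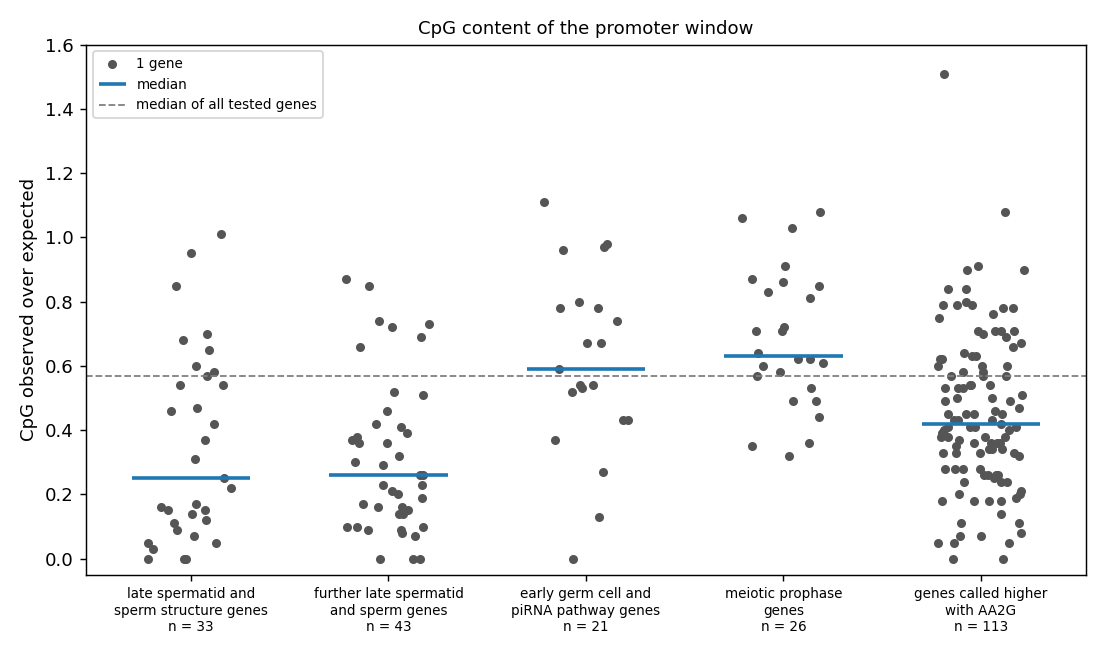
Ratio of observed to expected CpG (y axis) in the 300-base promoter window, 1 point per gene, for the members, 3 other lists and the genes called higher with AA2G; bars are medians and the dashed line is the median of all tested genes (0.57). The members (0.25) and the further late spermatid genes (0.26) lie lowest, and every list spans a wide range.

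For comparison with the packaging genes, the same 150 bases are shown for Spaca1, the member with the lowest p among those with a positive value, and for Sohlh2 and Rec114, which had the smallest p in the early germ cell list and in the meiotic list. They lie at chr4:34050066-34050215 (minus strand), chr3:55181894-55182043 (plus strand) and chr9:58741560-58741709 (minus strand) of GRCm38.p6, with every CG in capitals.
Spaca1: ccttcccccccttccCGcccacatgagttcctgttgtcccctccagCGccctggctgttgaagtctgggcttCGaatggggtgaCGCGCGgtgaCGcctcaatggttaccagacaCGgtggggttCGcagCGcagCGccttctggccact
Sohlh2: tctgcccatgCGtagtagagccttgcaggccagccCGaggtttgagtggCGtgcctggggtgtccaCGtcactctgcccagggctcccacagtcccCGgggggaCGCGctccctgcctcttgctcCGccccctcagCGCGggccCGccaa
Rec114: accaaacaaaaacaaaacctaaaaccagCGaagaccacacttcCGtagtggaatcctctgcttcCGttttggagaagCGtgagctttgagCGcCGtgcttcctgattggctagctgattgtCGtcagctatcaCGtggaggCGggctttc
The stretch of Spaca1 and that of Sohlh2 hold 11 CpGs each and that of Rec114 holds 9. In the whole windows the observed over expected ratio was 0.54 for Spaca1 and for Sohlh2 and 0.71 for Rec114. The median of all tested genes was 0.57. Hspa1l, the member with the lowest p of all, holds 6 CpGs in its stretch, with a window ratio of 0.54.

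Motifs were searched on both strands of the 300-base windows, and a match is only a description. Only exact strings were counted, so variant sites that differ in a base went uncounted. A window without the string may therefore still hold a site. TGACGTCA, the full site of CREM-type factors, was present in 1 of the 33 members, Izumo1 (3.03%, against 2.65% of all genes). Its shorter form TGACG, which the full site contains, was present in 11 (33.3%, against 26.8% of all genes). The share was 33.3% in the early germ cell genes, 34.6% in the meiotic genes and 23.3% in the further late spermatid genes. CACGTG, an E-box, was present in 1 member, Crisp2 (3.03%, against 9.19%), while 9 of 21 early germ cell genes (42.9%) and 8 of 26 meiotic genes (30.8%) held it. TCCCGC, an E2F6-type site, was present in 5 members (15.2%, against 28.5% of all genes). It was present in 57.7% of the meiotic genes and 19% of the early germ cell genes. Of the genes called higher with AA2G, 19.5% held TGACG, 12.4% CACGTG and 18.6% TCCCGC. Each of these strings contains a CG, so their shares are not independent of CpG content.

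In untreated cells the 8 markers of embryonic stem cells read between 7.38 and 12.00. The 5 feeder fibroblast markers read between 5.17 and 6.79, and the 6 primitive endoderm markers between 4.82 and 8.17. Levels of different genes are not ranked, so these ranges do not settle which cells were present. Of all these markers 0 passed in limma. At an unadjusted limma p under 0.05, 3 stem cell markers were negative (37.5% of the 8, against 5.06% of all features). They were Klf4 (-0.31), Nanog (-0.17) and Pou5f1 (-0.16), each without overlap of the groups. Of the 6 endoderm markers only Sparc passed that p, with a positive value (0.34), 16.7% of its list against 4.66% of all features. The endoderm markers Gata6 (-0.16, without overlap) and Dab2 (-0.27) were negative. Pdgfra, Sox17 and Gata4 lay between 0.01 and 0.08. Over all features 143 were called higher and 36 lower. That total moved with the settings, from 64 without untreated replicate 3 to 496 with array weights, while the count of members was 0 under each of the 14 alternatives. Leaving out untreated replicate 1 or 2 gave 98 or 101 calls, and leaving out AA2G replicate 2 or 3 gave 89 or 88.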

How the data were processed

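The deposited values are log2 expression values per transcript cluster, which the authors made with RMA (background correction, quantile normalization and summary); per the submitters' processing notes the program was Affymetrix Expression Console, with versions and filters not given. Values ran from 1.20 to 13.2, with array medians between 5.06 and 5.10. Precision is limited by the number of arrays, as no read depth exists. Of 41345 features, 23521 carry 1 gene symbol in the platform annotation and were tested; 1814 with several and 16010 with none listed were left out of the main fit.

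AA2G was compared with untreated cells in limma 3.58.1 (R 4.3.3; lmFit and eBayes, no covariate, two-sided), with Benjamini-Hochberg adjustment over the 23521 features; the procedure was tested on simulated data. With 3 arrays against 3, exact permutation cannot reach a p under 0.1. Where a list is counted by gene, the brightest feature stands for the gene. Members, lists and tests were chosen with earlier results of these data known. Per-array values are given for members at an unadjusted p under 0.05 and for the highest, lowest, most positive and most negative of each role, and up to 4 genes are named from each further list by smallest p; any further gene was picked with its values in view, as the text says beside it. Same-numbered arrays were not treated as pairs, because the labels do not say that a number marks a shared culture day. Promoter windows are from RefSeq (GRCm38.p6), matched by symbol and averaged where a gene has several; the array's build is not given, so no positions of features are printed.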

Additional observations from a re-analysis of the deposited data

How the results depend on the processing

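No member passed the threshold under any of the 14 alternatives (0 of 555 values), and 31 of the 555 changed sign, each no larger than 0.15 in size. The 42 intervals, or the 39 and 12 left with 1 feature per gene and with brighter features only, stayed inside a 2-fold change. The members' median stayed between -0.05 and -0.01 with an array left out. Over all features 277 passed under a trended robust prior, 496 under array weights, and from 64 to 131 with an array left out. With array weights 61.1% of the calls were rises (303 higher, 193 lower) and with brighter features only 65.7% (165 and 86), against 79.9% (143 and 36); the cause was not tested. With the replicate number as a block (replicate block) 155 features were called and 0 members, and the members' median was -0.02; of the risers named in the further lists Piwil2 was lost. Same-numbered arrays had r = 0.23, 0.22 and 0.02 across features for replicates 1, 2 and 3. Replicate 1 of one group against replicate 2 of the other had r = -0.22. For replicate 3 the value was hardly apart from the 0 and -0.01 of its other pairings. Deviations are centred within each group of 3 arrays, so these values are not separate pieces of evidence. They are a hint for replicates 1 and 2, from the data and not from the design. Alternatives for the further lists were added after the data were seen: Mael was lost without untreated replicate 3 (adjusted p = 0.0602) and without AA2G replicate 2 (0.0529), and Hormad2 without AA2G replicate 2 (0.0528). Stra8 and Piwil2 were lost with all features fitted and in every fit with an array left out except that without AA2G replicate 1, with adjusted p between 0.0547 and 0.14. Terb2 was lost with all features fitted and without untreated replicate 1, AA2G replicate 2 and AA2G replicate 3. The low level of most members limits what the arrays can show.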
